A study of Mus musculus with 5 samples.

Results

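The 8 genes described here encode chains of the T cell receptor and of the CD3 complex, and were taken by symbol from the gene rows of every matrix. Trac, Trbc1 and Trbc2 encode the constant regions of the αβ receptor. Trdc encodes the δ constant region and Trgv2 a γ variable segment of the γδ receptor, and Cd3d, Cd3e and Cd3g encode the δ, ε and γ chains of CD3. All 8 were present in all 15 matrices, among 272 rows for receptor gene segments and CD3 chains in all. They were followed in 2 states of lymphocytes. Naive-like cells carried at least 1 UMI (unique molecular identifier, a count of captured transcripts) of Lef1, Dapl1 or S1pr1, genes of naive and recirculating T cells. Cytotoxic cells carried at least 1 UMI of the granzyme genes Gzmb or Gzmc. Cells that passed both gates were left out of both.

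The tumors came from MMTV-PyMT mice on the FVB background, in which the MMTV promoter drives polyoma middle T in mammary epithelium, so every tumor carried the transgene. Mice received isotype IgG2a (clone C1.18.4) or the anti-VEGF-A antibody B20-4.1.1, both at 5 mg/kg intraperitoneally, 2 times a week for 6 weeks from 7 weeks of age. Viable cells were sorted and sequenced by a droplet 3′ method in 5 pools of 3 tumors, each tumor with its own multiplexing oligonucleotides, giving 6 IgG2a tumors in 2 pools and 9 B20-4.1.1 tumors (B20 tumors from here on) in 3 pools. Each pool held 1 treatment, so pool and treatment cannot be told apart.

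The T cell receptor recognizes antigen through a pair of variable chains, either α with β or γ with δ, and has no signaling tail of its own. The CD3 chains assemble with either pair, carry it to the cell surface and pass the signal on. In the thymus the β, γ and δ loci rearrange before the α locus. The δ genes lie inside the α locus, so a V to J rearrangement of α on a chromosome deletes the δ constant gene there. Transcripts of rearranged γ genes are known from αβ T cells too, and natural killer (NK) cells can transcribe unrearranged constant genes.

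Positions are in GRCm38 (mm10), the build the study names, from the GENCODE M21 annotation, whose identifiers matched those of the files for 8 of 8 genes. Trdc lies at chr14:54142851-54148868 and Trac downstream at chr14:54220521-54224206, both on the plus strand and 71652 bases apart. Trbc1 lies at chr6:41538218-41539881 and Trbc2 at chr6:41546730-41548352, also on the plus strand. Trgv2 lies at chr13:19336573-19337167 on the minus strand. The 3 CD3 genes form a cluster on chromosome 9, Cd3g at chr9:44969572-44980431 (minus strand), Cd3d at chr9:44981786-44987339 (plus strand) and Cd3e at chr9:44998740-45009627 (minus strand). Cd3g and Cd3d are divergent neighbors, 1354 bases apart.

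Trbc1 and Trbc2 are near copies, and how well counts separate them depends on where they differ. Over 518 coding bases of the annotated transcripts they differed at 23 positions (95.6% identical). Exon 1, with 375 of these bases, held 1 difference and the 143 bases after it held 22, and the longest identical stretch was 259 bases. The coding bases 371 to 518 are given with the differing bases in capitals, because only reads over such bases, or over parts not compared here, can be assigned to a single copy. A count of either gene is therefore uncertain as to the copy, and how reads over identical stretches were counted was not examined.
Trbc1: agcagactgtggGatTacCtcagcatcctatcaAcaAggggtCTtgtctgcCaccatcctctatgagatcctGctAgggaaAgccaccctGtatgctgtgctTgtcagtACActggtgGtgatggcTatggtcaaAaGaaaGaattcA
Trbc2: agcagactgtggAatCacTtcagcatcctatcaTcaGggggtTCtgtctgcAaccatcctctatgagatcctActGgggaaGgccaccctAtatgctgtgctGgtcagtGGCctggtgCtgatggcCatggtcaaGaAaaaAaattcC

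The RefSeq promoter table (GRCm38.p6, 250 bases before to 50 after the start) held 3 of the 8 genes, the CD3 genes, which were detected together in single cells as described below. The motif CACCTG, an E-box read on both strands as CACCTG or CAGGTG, occurred 2 times in the Cd3g window and 1 time each in those of Cd3d and Cd3e. It is in capitals in the sequences, and 20.2% of 32851 promoters of this length held it. An ETS motif, TTCCTG or CAGGAA, occurred 1 time in Cd3d and 1 time in Cd3e (30.6% of promoters), and a TCF and LEF motif, CTTTGA or TCAAAG, 2 times in Cd3d (16% of promoters). A Runx motif, TGTGGT or ACCACA, occurred in none of the 3 windows (16.8% of promoters). The windows are chr9:44980382-44980681 (minus strand) for Cd3g, chr9:44981536-44981835 (plus strand) for Cd3d and chr9:45009562-45009861 (minus strand) for Cd3e. These matches describe the sequence and are not binding sites.
Cd3g promoter: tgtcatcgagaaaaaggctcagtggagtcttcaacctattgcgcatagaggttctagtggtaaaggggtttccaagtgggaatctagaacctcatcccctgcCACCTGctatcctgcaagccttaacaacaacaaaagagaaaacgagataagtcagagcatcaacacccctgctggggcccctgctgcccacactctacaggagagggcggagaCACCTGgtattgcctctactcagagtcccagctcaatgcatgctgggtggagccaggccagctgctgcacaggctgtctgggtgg
Cd3d promoter: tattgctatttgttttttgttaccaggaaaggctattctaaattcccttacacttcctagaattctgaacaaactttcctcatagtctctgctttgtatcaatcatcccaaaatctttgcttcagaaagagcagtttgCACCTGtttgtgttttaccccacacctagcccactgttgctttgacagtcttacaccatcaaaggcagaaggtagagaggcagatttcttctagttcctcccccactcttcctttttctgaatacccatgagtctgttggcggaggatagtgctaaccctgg
Cd3e promoter: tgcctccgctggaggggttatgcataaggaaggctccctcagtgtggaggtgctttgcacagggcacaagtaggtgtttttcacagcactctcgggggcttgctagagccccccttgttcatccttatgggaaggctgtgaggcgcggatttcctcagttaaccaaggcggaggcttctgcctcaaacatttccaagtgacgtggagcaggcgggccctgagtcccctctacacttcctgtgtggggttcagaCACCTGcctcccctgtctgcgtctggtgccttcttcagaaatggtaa

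The matrices held 30340 cells and 198806160 UMIs, from 4014509 to 23726246 per tumor, and 19533 cells with at least 2500 UMIs and within the other limits were analyzed (10630 from IgG2a and 8903 from B20 tumors). Clusters were found and named without any receptor or CD3 gene, which left 2926 T or NK lymphocyte-like cells. Of these, 1576 were naive-like (88 in IgG2a and 1488 in B20 tumors), 769 were cytotoxic (437 and 332), 102 passed both gates and 479 neither. In B20 tumors 3, 4 and 6 lymphocytes were 59.5%, 68.3% and 67.4% of cells, against 3.01% to 14.5% in IgG2a tumors and 4.53% to 23.8% in the other B20 tumors. These 3 tumors held 1405 (89.1%) of the naive-like cells. No barcode was shared between tumors of a pool, and 94 were shared over the 10 pairs of pools.

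Naive-like cells had a median of 3751.5 UMIs and cytotoxic cells 5480. All shares of cells with a UMI below are therefore expected shares after thinning each cell to 2500 UMIs, unless said otherwise. The gates followed the clusters, which could use the same genes, since 1481 of 1576 naive-like cells fell in a cluster led by Lef1, Dapl1, S1pr1, Cd8b1 and Lat, and 710 of 769 cytotoxic cells in one led by Xcl1, Gzmb, Cd7 and Gzmc. Another 79 naive-like cells lay in the cluster led by Xcl1 and Gzmb. In those 79 cells Trdc was detected in 19.4% and Trgv2 in 21.7%, against 2.48% and 0.747% of the naive-like cells in the first cluster. Naive-like cells outside the first cluster made up 0.997% to 2.09% of those in B20 tumors 3, 4 and 6, and 20% to 56.2% in the 8 other tumors with at least 10 naive-like cells.

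The receptor and CD3 genes were detected mainly in lymphocytes. In 13702 epithelial-like cells each of the 8 was detected in 0.0848% to 1.07% of cells, and in 1752 macrophage-like cells in 0.458% to 2.30%. In 197 B-like cells Trgv2 was detected in 0 cells, which allows a share of up to 1.52% (3 counts over 197 cells), Trdc in 0.268% and the other 6 genes in 3.25% to 8.61%. Median depths were 8751.5, 6441 and 3353 UMIs. The source of these UMIs was not tested, and a share of αβ or CD3 genes at the level of B-like cells is not read as expression. An unnamed cluster of 313 cells with both lymphocyte and epithelial markers lay between, with Trdc in 12.5% and Cd3g in 66.6%.

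**Figure D1:**
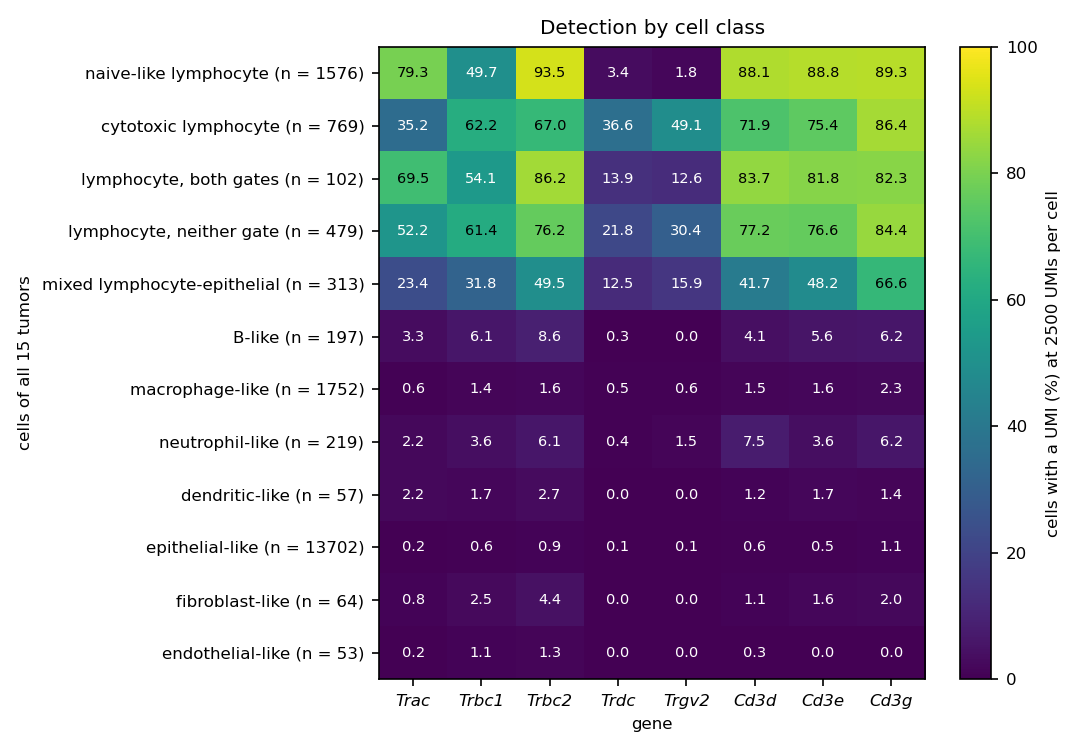
Detection of each gene (columns) by cell class (rows, cells of all 15 tumors pooled), as the percentage of cells with a UMI at 2500 UMIs per cell. Trac falls from 79.3% of naive-like to 35.2% of cytotoxic cells while Trdc goes from 3.37% to 36.6% and Trgv2 from 1.84% to 49.1%, and epithelial-like cells stay at or below 1.07%.

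To compare the states within tumors, 10 tumors with at least 10 cells of each state were used, IgG2a tumors 1 to 6 and B20 tumors 1, 3, 5 and 6. Differences were tested over tumors by an exact two-sided sign-flip permutation test, for which 0.00195 is the smallest possible p. Of the 8 genes, Trac, Trbc2, Cd3d and Cd3e were detected in fewer cytotoxic than naive-like cells, Trdc, Trgv2 and Trbc1 in more, and Cd3g in a share that did not pass the test.

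Trac, the α constant gene, was detected in 39.4% to 82.6% of naive-like cells per tumor (median 70.1%) and in 30.7% to 46.7% of cytotoxic cells (median 37.4%). Every tumor was lower in its cytotoxic cells, although the ranges overlapped through the naive-like cells of IgG2a tumors 4 (46.2%) and 5 (39.4%). The mean fell from 67.2% ± 14.8 to 38.4% ± 5.82 (SD, n = 10 tumors, exact p = 0.00195). Trbc2 went from a median of 88.3% (67.2% to 94.7%) to 68.9% (57.2% to 79.1%) and was lower in 9 of 10 tumors. Its mean fell from 87.1% ± 8.66 to 69.8% ± 6.61 (SD, n = 10, exact p = 0.00391). Trbc1, the other β constant gene, went the other way, from a median of 49.6% (27.4% to 77.5%) to 61.8% (48.7% to 71.7%), higher in 7 of 10 tumors. Its mean rose from 48.7% ± 14.0 to 60.3% ± 7.11 (SD, n = 10, exact p = 0.0469). Without B20 tumors 3, 4 and 6 the Trbc1 difference was 12.9 percentage points and no longer passed (exact p = 0.0859). It also did not pass without IgG2a pool 1, IgG2a pool 2, B20 pool 1 or B20 pool 2, at 6.12 to 14.9 percentage points (exact p from 0.0547 to 0.172).

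Despite these shifts a transcript of an αβ gene was found in nearly every cell of both states. The share with Trac, Trbc1 or Trbc2 was 99.0% ± 0.937 in naive-like and 94.7% ± 1.68 in cytotoxic cells (SD, n = 10 tumors, exact p = 0.00195, lower in 10 of 10). Without thinning this difference was 0.758 percentage points in the same direction (exact p = 0.125). A complete αβ pair, Trac with a β constant gene in the same cell, was detected in 39.3% to 81.5% of naive-like cells and in 26.0% to 45.2% of cytotoxic cells. The mean fell from 64.5% ± 14.3 to 35.7% ± 6.98 (SD, n = 10, exact p = 0.00195).

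The γδ genes showed the opposite pattern. Trdc was detected in 0% to 38.3% of naive-like cells (median 4.18%) and in 15.1% to 58.8% of cytotoxic cells (median 38.6%). The naive-like shares stood above 10% in IgG2a tumors 4 (38.3%, 16 cells) and 6 (20%, 13 cells) and at 5.52% or below in the other 8 tumors. Within each tumor the cytotoxic cells were higher, by 4.99 to 53.3 percentage points, and the mean rose from 8.36% ± 11.9 to 37.2% ± 11.9 (SD, n = 10, exact p = 0.00195). Trgv2 was detected in 0% to 21.6% of naive-like and 32.2% to 57.5% of cytotoxic cells, ranges that did not overlap. Its mean rose from 6.31% ± 6.73 to 47.2% ± 9.33 (SD, n = 10, exact p = 0.00195). A cell with either γδ gene was seen in 11.1% ± 12.8 of naive-like and 60.9% ± 10.7 of cytotoxic cells (exact p = 0.00195).

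Among the CD3 genes, Cd3d was detected in 62.4% to 95.8% of naive-like cells (median 85%) and 55.4% to 82.0% of cytotoxic cells (median 72.7%). The mean fell from 81.6% ± 10.6 to 71.5% ± 7.73 (SD, n = 10, exact p = 0.0176). Cd3e fell from 83.6% ± 8.09 to 75.7% ± 7.34 (SD, n = 10, exact p = 0.0352), and both genes were lower in 8 of 10 tumors. Without B20 tumors 3, 4 and 6 neither passed, with differences of -8.48 (exact p = 0.0703) and -6.03 percentage points (exact p = 0.125). The same was so without IgG2a pool 1, at -6.82 and -6.21 percentage points (exact p = 0.141 for both), and without B20 pool 2, at -9.28 and -5.96 (exact p = 0.0547 and 0.125). With a minimum of 1000 UMIs per cell, and cells thinned to 1000 UMIs, the differences were -1.42 for Cd3d and 0.57 for Cd3e. Cd3g was at 82.8% ± 6.38 and 84.8% ± 8.4 (exact p = 0.602), and higher in 8 of 10 tumors. Its lowest cytotoxic share, 65.3%, was that of the 10 cells of B20 tumor 6. Without the 3 lymphocyte-rich tumors Cd3g was 5.37 percentage points higher in cytotoxic cells and without B20 pool 2 it was 4.98 higher (exact p = 0.0234 for both). With a minimum of 1000 UMIs and thinning to 1000, it was 17.1 percentage points higher over 15 tumors (exact p = 6.1e-05). With counts not thinned the Cd3g difference was -2.41. Any CD3 gene was detected in 97.5% ± 4.45 of naive-like and 86.2% ± 7.15 of cytotoxic cells (exact p = 0.00391).

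**Figure D2:**
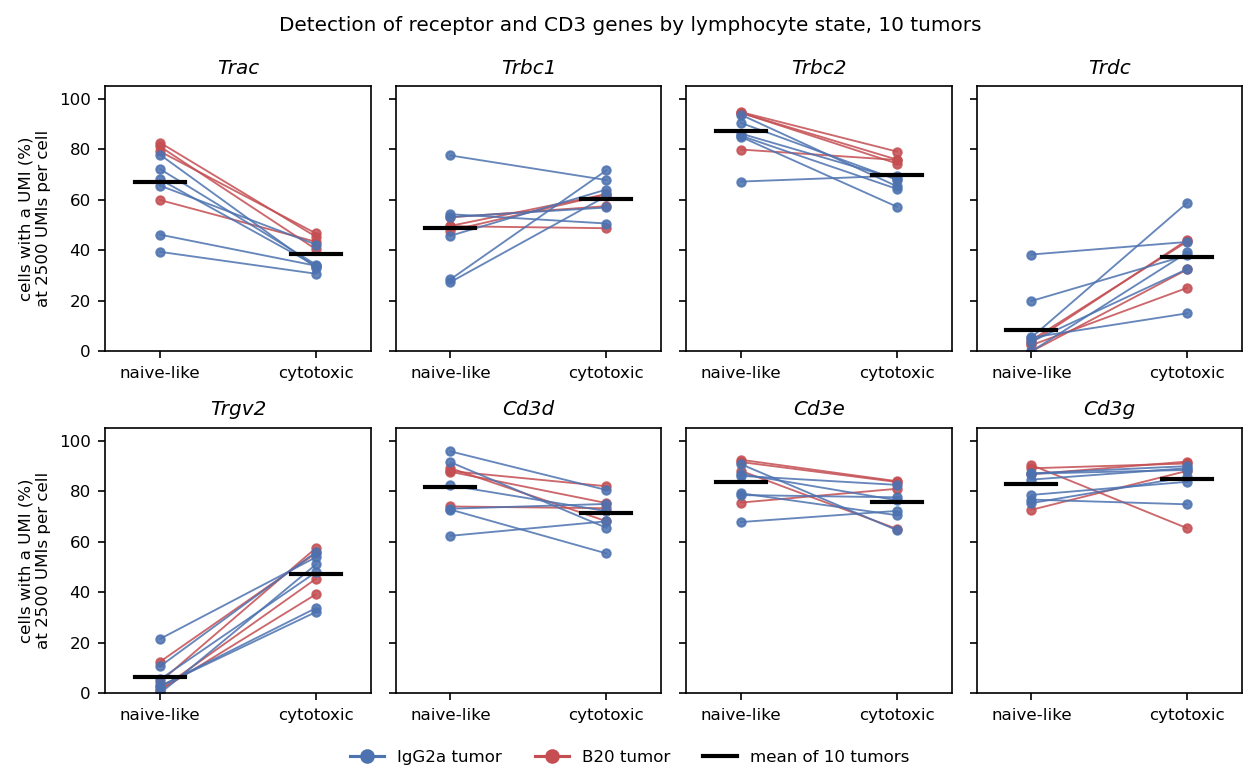
Percentage of cells with a UMI of each gene at 2500 UMIs per cell (y axis) in naive-like and cytotoxic cells (x axis), with 1 line per tumor colored by treatment and the mean of 10 tumors as a black bar. Lines for Trdc and Trgv2 rise and those for Trac fall in 10 of 10 tumors.

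Co-detection of αβ and γδ genes in the same cell was common in cytotoxic cells. At least 1 αβ gene and 1 γδ gene were found in 0% to 43.0% of naive-like cells per tumor (median 5.95%) and in 39.1% to 69.3% of cytotoxic cells (median 62.4%). The mean rose from 10.8% ± 12.6 to 57.4% ± 9.71, a difference of 46.7 percentage points present in 10 of 10 tumors (SD, n = 10, exact p = 0.00195). Only IgG2a tumor 4 had a naive-like share (43.0%) within the cytotoxic range. With cells from 1000 UMIs up, clustered anew and thinned to 1000 UMIs each, the difference was 27.6 percentage points over 15 tumors (exact p = 6.1e-05). The lower depth of thinning and the added cells cannot be told apart there. Trac and Trdc themselves were in the same cell in 1.34% ± 1.96 of naive-like and 5.09% ± 4.85 of cytotoxic cells (SD, n = 10, exact p = 0.0312), which did not pass without IgG2a pool 1 (exact p = 0.141) or B20 pool 2 (exact p = 0.125). With all UMIs kept, 545 of 769 cytotoxic cells (70.9%, 95% Clopper-Pearson interval 67.5 to 74.1) held UMIs of both kinds of gene. Another 213 held αβ genes alone, 9 γδ genes alone, and 1 cell each CD3 genes alone and none of the 8. Trac and Trdc were together in 75 of the 769, and β constant genes and Trgv2 were common with either, as described below. These are counts of transcripts and do not show that a cell carried both receptors. Of 1576 naive-like cells, 82 (5.2%, 95% Clopper-Pearson interval 4.16 to 6.42) held both kinds and 1491 αβ genes alone. These intervals cover counting error only. The same co-detection was seen in 0.0179% of epithelial-like and 0.454% of macrophage-like cells and in 0 of 197 B-like cells, which allows a share of up to 1.52% (3 counts over 197 cells).

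**Figure D3:**
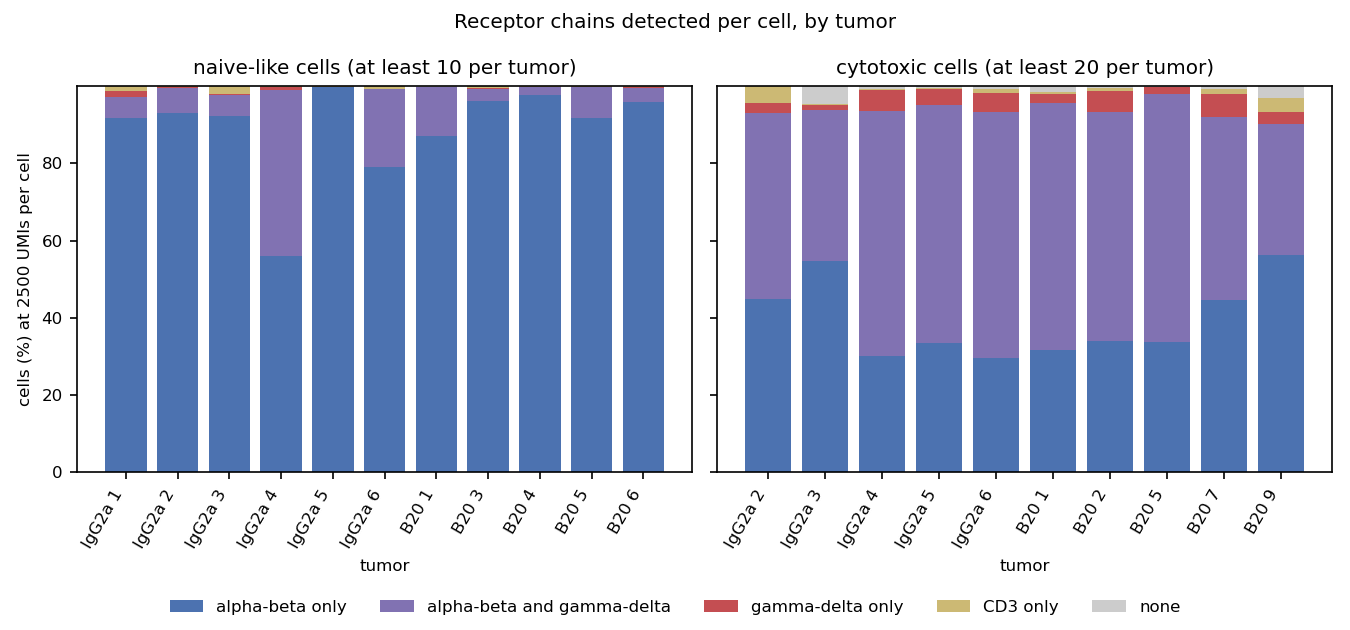
Percentage of cells (y axis, at 2500 UMIs per cell) in 5 classes of detected genes, stacked per tumor, for naive-like cells of 11 tumors and cytotoxic cells of 10. Cells with both αβ and γδ genes make up 34.0% to 64.1% of cytotoxic cells and, outside IgG2a tumors 4 and 6, at most 12.5% of naive-like cells.

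The co-detection did not run evenly over the genes. Each pair of genes was compared with the product of their shares in cytotoxic cells of a tumor, the level expected if the 2 were detected independently of each other, over 10 tumors with at least 20 cytotoxic cells. Cells share depth and library, so the ratios are given as a description. Trac and Trdc, the pair whose α rearrangement removes δ, were found together in 3.70% of cells against a product of 11.8%, a mean log2 ratio of -1.80 (-4.22 to -0.97 over tumors), below 0 in 10 of 10. Trac with Trgv2, in contrast, had a log2 ratio of 0.21, above 0 in 9 of 10 tumors, and Trdc with Trgv2 had 0.48. Trbc2 with Trdc (0.03) and Trbc1 with Trdc (0.01) lay near the product. The 3 CD3 genes were found together more often than the product, with log2 ratios of 0.22 to 0.36, above 0 in every tumor for each pair.

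Trbc1 stood apart from the other genes. Its log2 ratio was -0.30 with Trac, -0.16 with Trbc2, and -0.20, -0.21 and -0.10 with Cd3d, Cd3e and Cd3g. Trbc2, by comparison, had 0.33 with Trac and 0.15 to 0.25 with the CD3 genes. In naive-like cells of the 4 tumors with at least 20, Trbc1 with Trac was at -0.01 and with the CD3 genes between -0.00071 and 0.01. There Trac with Trdc was at -0.99, or -0.45 without B20 tumor 5, which alone was at -2.62 on 52 cells, and Trdc with Trgv2 was at 3.98, on shares of 1.33% and 0.784% of cells.

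**Figure D4:**
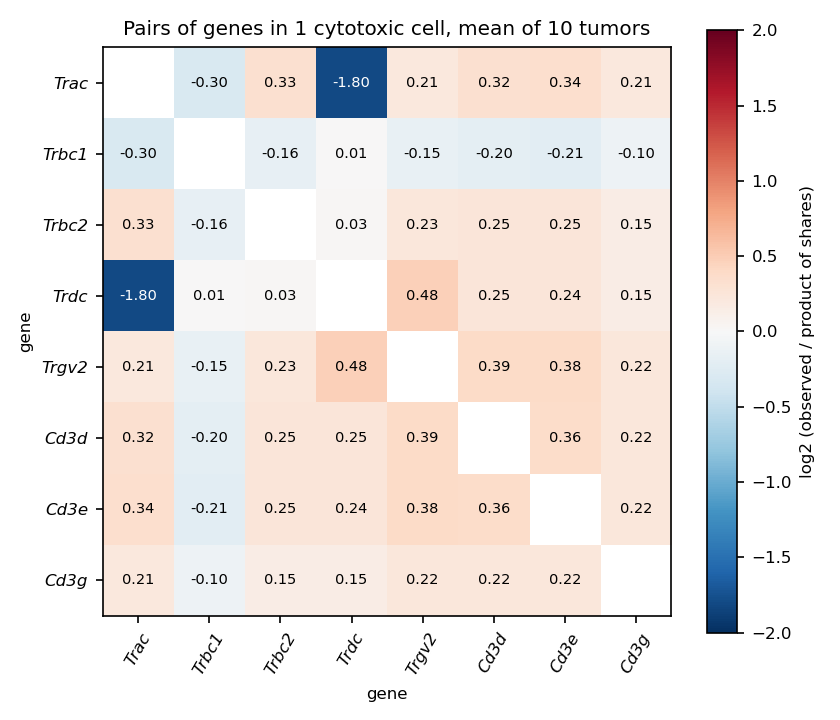
Log2 of the share of cytotoxic cells with both genes over the product of the 2 shares, for each pair of the 8 genes (both axes), as the mean of 10 tumors at 2500 UMIs per cell. Trac with Trdc (-1.80) is the lowest value, the CD3 pairs lie between 0.22 and 0.36, and Trbc1 is below 0 with Trac, Trbc2 and the 3 CD3 genes.

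Cytotoxic cells without CD3 carried Trbc1 in nearly every case. With all UMIs kept, 88 of 769 cytotoxic cells had no UMI of Cd3d, Cd3e or Cd3g, between 1 and 13 in each of the 15 tumors. Of the 88, 87 (98.9%) had a Trbc1 UMI, 25 (28.4%) a Trbc2 UMI and 4 (4.55%) a Trac UMI. Trdc was present in 19 (21.6%) and Trgv2 in 2 (2.27%). In the 681 cells with CD3, Trbc1 was in 67.3%, Trbc2 in 85.5%, Trac in 53.3%, Trdc in 45.1% and Trgv2 in 71.2%. Ncr1, which encodes the NK cell receptor NKp46, was in 81 of the 88 cells (92.0%, 95% Clopper-Pearson interval 84.3 to 96.7) against 24.2% of the cells with CD3, and Klrb1c, the NK1.1 gene, in 34.1% against 6.17%. Fcer1g and Tyrobp, adaptors of NK and myeloid receptors, were in 100% and 95.5% of the cells without CD3 and in 95% and 86.9% of those with it. The cells without CD3 were shallower, with a median of 4996 UMIs against 5512. They were chosen by counts of members, so these shares are a description with no test.

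Levels, in UMIs of a gene per 10000 UMIs of a population in a tumor, gave a second measure of the states. Counts were summed per tumor and state and compared with edgeR's quasi-likelihood test with tumor as a block, over 3869 genes, of which 25.5% passed an adjusted p of 0.05 (13.3% higher and 12.2% lower in cytotoxic cells). Such sums measure a population, and fewer cells with a transcript and less transcript per cell cannot be told apart in them. Of the 8 members, 4 were higher in cytotoxic cells (Trgv2, Trdc, Cd3g and Cd3e), 2 lower (Trac and Trbc2) and 2 did not pass (Trbc1 and Cd3d). For Trgv2 and Trdc, sparse in naive-like cells, the direction is a description only. The median of the 8 was 0.24 on the log2 scale, against 0.02 over all genes tested.

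Trgv2 lay at 0 to 1.81 UMIs per 10000 in naive-like and 2.77 to 4.66 in cytotoxic cells of the 10 tumors, with no overlap. It rose by a log2 fold of 3.09 ± 0.31 (SE, edgeR adjusted p = 1e-07). Trdc rose by 2.06 ± 0.42 (SE, edgeR adjusted p = 0.00072). In naive-like cells Trgv2 had 110 UMIs and Trdc 242, against 1424 and 1591 in cytotoxic cells. Most of their counts thus came from cytotoxic cells, and their state folds and p-values are a description only. Fitted within IgG2a tumors the Trdc fold was 0.92 ± 0.39 (edgeR adjusted p = 0.096) and within B20 tumors 3.28 ± 0.32 (adjusted p = 2.3e-06). The difference between these folds was 2.35 ± 0.67 and did not pass in the edgeR interaction test (adjusted p = 0.36). The naive-like level of Trdc was 6.34 and 3.88 UMIs per 10000 in IgG2a tumors 4 and 6 and at most 1.10 in the other 9 tumors with at least 10 naive-like cells. Across the interaction, 0 of 8 members passed with edgeR and 3 had an unadjusted p under 0.05, while of all 3869 genes 0.103% passed (0.0775% higher and 0.0258% lower) and 4.99% had an unadjusted p under 0.05.

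Cd3g was higher in cytotoxic cells by a log2 fold of 1.29 ± 0.12 (SE, edgeR adjusted p = 3.1e-08). In UMIs per 10000 it lay between 6.62 and 10.6 in naive-like cells (median 9.54) and between 14.3 and 32.1 in cytotoxic cells (median 27.7), so the states did not overlap. Cd3e was at 6.56 to 11.8 and 9.47 to 15.9 UMIs per 10000, and was higher by 0.28 ± 0.10 (SE, edgeR adjusted p = 0.036). This did not pass in IgG2a tumors (adjusted p = 0.059) or B20 tumors alone (adjusted p = 0.78, edgeR), nor without IgG2a pool 1, IgG2a pool 2 or B20 pool 2 (adjusted p from 0.097 to 0.28). Cd3d differed by 0.05 ± 0.12 (adjusted p = 0.81). The share of cells with Cd3e was lower and the level of Cd3e higher in cytotoxic cells. Trac was lower by a log2 fold of -0.95 ± 0.15 (SE, edgeR adjusted p = 2.7e-05) and Trbc2 by -0.74 ± 0.10 (edgeR adjusted p = 1.1e-05), while Trbc1 differed by 0.20 ± 0.16 (adjusted p = 0.41).

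Most of the receptor signaling genes that passed were lower in cytotoxic cells. Of 23 genes of receptor signaling, 21 were tested, 11 were lower in cytotoxic cells, 1 was higher and 9 did not pass, with a median log2 fold of -0.92. The lower ones included Cd28, the costimulatory receptor, Themis, needed for thymic selection, and the scavenger receptor family members Cd6 and Cd5. Cd28, Themis, Cd6 and Cd5 had 26 to 39 UMIs in cytotoxic cells against 449 to 1192 in naive-like cells. Their log2 folds of -4.14 ± 0.30 (SE), -3.55, -3.53 and -3.25 are therefore a description only. Cd247, which encodes the CD3 ζ chain of the complex, was lower by a log2 fold of -1.54 ± 0.21 (edgeR adjusted p = 5.5e-06), and the adaptor gene Lat by -1.76. Ptpn22, a phosphatase of receptor signaling, was the higher one at 0.75, and the kinase genes Lck (-0.19), Fyn (-0.13) and Zap70 (0.43) did not pass.

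Of the coreceptor genes, Cd4 had 4 UMIs in cytotoxic and 665 in naive-like cells, so its log2 fold of -6.12 is a description only. Cd8b1, with 166 and 2218 UMIs, was lower by -2.90 ± 0.29 (SE). Cd8a, which also forms αα dimers, was higher by 0.89 ± 0.27 (edgeR adjusted p = 0.019). Of 10 NK and innate genes 9 were tested and 8 were higher, with Eomes at -1.02 not passing (edgeR adjusted p = 0.051). Tyrobp, Fcer1g, Xcl1 and Ncr1 led them, at log2 folds of 4.34, 4.00, 3.78 and 3.14. These had 56 to 492 UMIs in naive-like cells against 660 to 11378 in cytotoxic cells, so their folds are a description only. Fcer1g encodes the FcR γ chain, which can pair with the ζ chain. The summed level of these 10 genes was 2.66 to 21.3 UMIs per 10000 in naive-like and 68.0 to 96.6 in cytotoxic cells. Of 10 genes of γδ and innate-like T cells only 3 were tested, and 1, Tmem176b, was higher (1.48, adjusted p = 0.036). Among 263 other receptor segment rows 4 reached the test, through cytotoxic cells, where their UMIs were 304 to 937 against 33 to 82 in naive-like cells, so their direction is given as a description only, with log2 folds of 3.62 for Tcrg-C2, 3.29 for Tcrg-C1, 2.65 for Tcrg-V1 and 2.59 for Tcrg-C4. The summed epithelial markers were at a median of 1.54 UMIs per 10000 in naive-like and 3.71 in cytotoxic cells, with 8 and 7 of 8 markers present and Krt5 at 0 in the latter, and their part in these results was not tested.

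Single receptor segments were sparse. With all UMIs kept, 55 of 128 α variable, 41 of 60 α joining, 14 of 35 β variable and 7 of 7 γ variable rows had a UMI in a lymphocyte. The β variable segments Trbv24 and Trbv2 were in 6.22% and 5.96% of naive-like and 2.73% and 3.64% of cytotoxic cells. The γ constant genes were far more common in cytotoxic cells, with Tcrg-C2 in 55.4%, Tcrg-C4 in 48.9% and Tcrg-C1 in 41% of them, against 2.16%, 2.66% and 1.97% of naive-like cells. Cd247 went the other way, from 50.4% to 23.4%.

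Since Trac and Trdc were seldom in the same cell, cytotoxic cells were divided by them. Trac without Trdc was found in 292 cells, Trdc without Trac in 251, both in 75 and neither in 151. Of the 292 cells with Trac, 287 also had a β constant UMI and 204 (69.9%) had Trgv2. Of the 251 cells with Trdc, 242 (96.4%) also had a β constant UMI and 192 (76.5%) had Trgv2. Median depth was 6060.5 UMIs in the Trac class, 5144 in the Trdc class and 6839 in cells with both. The classes were compared within the 8 tumors that held at least 10 cells of each, IgG2a tumors 2, 4, 5 and 6 and B20 tumors 1, 2, 5 and 7, by edgeR with tumor as a block. Of 4180 genes other than Trac and Trdc, 0.598% passed, 0.383% higher and 0.215% lower in the Trdc class. Among the 6 members left, 1 passed, Trbc2.

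Trbc2 was at 9.73 to 16.8 UMIs per 10000 in the Trac class (median 13.0) and at 4.73 to 7.74 in the Trdc class (median 5.65), with no overlap between classes. It was lower in the Trdc class by a log2 fold of -1.22 ± 0.10 (SE, n = 8 tumors, edgeR adjusted p = 2e-08). Trbc1 was at 3.99 to 9.09 and at 5.19 to 8.85 UMIs per 10000, overlapping ranges, with a log2 fold of 0.17 ± 0.13 (edgeR adjusted p = 0.78). Trgv2 was at 2.86 to 6.23 and 2.37 to 6.22 UMIs per 10000 (log2 fold 0.08 ± 0.12, adjusted p = 0.93). The CD3 genes differed by -0.10 (Cd3d), -0.04 (Cd3e) and -0.03 (Cd3g), each with an SE of 0.07 to 0.09 and an adjusted p of 0.84 or above, in overlapping ranges.

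Other receptor segments followed the classes in part. In the Trdc class the γ constant genes Tcrg-C4 and Tcrg-C1 were higher by 1.33 ± 0.17 and 1.22 ± 0.19 (SE) and the γ variable segment Tcrg-V1 by 1.40 ± 0.25 (edgeR adjusted p of 0.013 or below). Tcrg-C2, a γ constant gene, differed by 0.02 ± 0.13. The γ variable segment Tcrg-V4, with 5 UMIs in the Trac class and 60 in the Trdc class, and the δ variable segment Trdv4, with 1 and 31, reached the test through the Trdc class, so their log2 folds of 3.40 ± 0.60 and 4.29 ± 0.85 are a description only. Cd8a was at 6.19 to 9.75 UMIs per 10000 in the Trac class and 1.14 to 2.27 in the Trdc class (log2 fold -2.19 ± 0.15, edgeR adjusted p = 8e-10). Cd8b1 had 195 UMIs in the Trac class and 0 in the Trdc class, which is 55.4-fold lower if the latter is set to 3 counts. Those 195 UMIs came from 40 of 235 cells (17.0%), and 0 of 219 cells of the Trdc class had one. UMIs of the same cell are not independent, so this fold is a description and not a lower bound. Of 15 receptor signaling genes and of 8 NK and innate genes 0 passed with edgeR, with median log2 folds of -0.11 and 0.13. An unadjusted p under 0.05 was held by 2 of each, and by 8.95% of all 4180 genes. Ncr1 was 1.02 ± 0.30 (edgeR adjusted p = 0.19), and was detected in 14.9% of Trac-class and 28.3% of Trdc-class cells. The epithelial keratin genes Krt18 (1.33 ± 0.23, adjusted p = 0.0047) and Krt8 (1.18 ± 0.25, adjusted p = 0.021), chosen after their values were seen, also passed. The summed epithelial markers had a median of 4.44 UMIs per 10000 (1.79 to 6.87) in the Trac class and 7.27 (2.73 to 12.4) in the Trdc class, and their part in these differences was not tested.

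**Figure D5:**
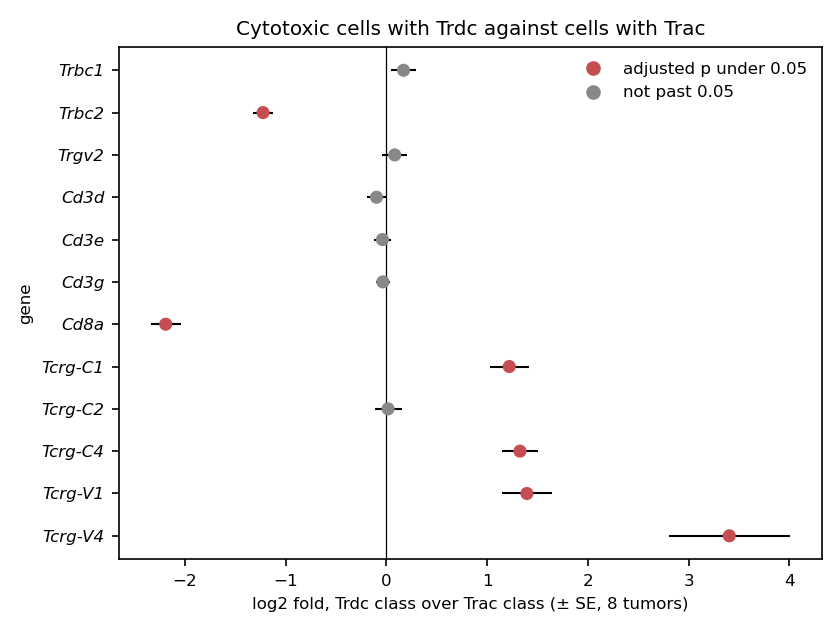
Log2 fold of summed counts in cytotoxic cells with Trdc and no Trac over cells with Trac and no Trdc (x axis), with SE bars from edgeR over 8 tumors, for members and related genes (y axis). Trbc2 (-1.22) and Cd8a (-2.19) lie below 0 and Tcrg-C4, Tcrg-C1, Tcrg-V1 and Tcrg-V4 (1.22 to 3.40) above it, while Trbc1, Trgv2 and the CD3 genes lie between -0.10 and 0.17.

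Treatment was compared over tumors by an exact two-sided permutation test of the shares, in all lymphocytes (6 IgG2a against 9 B20 tumors), naive-like cells (6 against 5, B20 tumors 1, 3, 4, 5 and 6) and cytotoxic cells (5 against 5, IgG2a tumors 2 to 6 and B20 tumors 1, 2, 5, 7 and 9). The smallest p these allow are 0.0002, 0.00216 and 0.00794. No member passed 0.05 in any of the 3.

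In cytotoxic cells the groups overlapped for each member. Trac was at 33.9%, 42.3%, 33.9%, 30.7% and 33.1% in IgG2a tumors 2 to 6 and at 43.4%, 33.5%, 40.4%, 34.1% and 33.6% in B20 tumors 1, 2, 5, 7 and 9, with means of 34.8% ± 4.39 and 37.0% ± 4.59 (SD, n = 5 each, exact p = 0.389). Trdc was at 32.6%, 15.1%, 43.3%, 39.1% and 38.1% in the same IgG2a tumors and at 32.5%, 40.0%, 43.5%, 31.7% and 15.7% in the B20 tumors (means 33.6% ± 11.1 and 32.7% ± 10.7, exact p = 0.905). The low values, from IgG2a tumor 3 and B20 tumor 9, came from the 2 tumors that were also lowest for Cd3d (55.4% and 48.7%), Cd3e (64.6% and 54.1%) and Cd3g (74.8% and 68.5%). In these tumors 21.2% and 24.4% of cytotoxic cells had no CD3 UMI, against 7.35% to 13.6% in the other 8 tumors. Co-detection of αβ and γδ genes was 55.1% ± 11.1 in IgG2a and 53.7% ± 12.9 in B20 tumors (SD, n = 5 each), a difference of -1.40 percentage points (exact p = 0.81). The other members differed by -1.23 (Trbc1), -0.412 (Trbc2), 2.31 (Trgv2), 0.128 (Cd3d), -0.371 (Cd3e) and -1.13 (Cd3g) percentage points.

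In naive-like cells Trac was at 72.1%, 68.0%, 65.6%, 46.2%, 39.4% and 77.8% in IgG2a tumors 1 to 6 and at 59.9%, 79.1%, 81.2%, 81.1% and 82.6% in B20 tumors 1, 3, 4, 5 and 6. Apart from B20 tumor 1 the B20 values lay above those of the IgG2a tumors, and the means were 61.5% ± 15.2 (SD, n = 6) and 76.8% ± 9.52 (SD, n = 5, exact p = 0.0887). Trdc was at 5.52%, 3.91%, 5.47%, 38.3%, 0% and 20% in IgG2a tumors and at 0%, 2.47%, 2.01%, 4.46% and 3.50% in B20 tumors (exact p = 0.195). The complete αβ pair had means of 58.0% ± 13.3 (n = 6) and 75.3% ± 9.33 (n = 5), 17.3 percentage points higher in B20 tumors (exact p = 0.0368), with overlapping groups. Without B20 pool 2 the difference was 10.2 (exact p = 0.429), without IgG2a pool 2 it was 12.4 (exact p = 0.143), and without B20 tumors 3, 4 and 6 it was 10.8 (exact p = 0.393). IgG2a tumors held 10 to 18 naive-like cells each, and B20 tumors 3, 4 and 6 held 301 to 578. The share of naive-like cells outside the cluster led by Lef1 was 20% to 56.2% in the IgG2a tumors, 0.997% to 2.09% in those 3 B20 tumors, and 41.7% and 44.2% in B20 tumors 1 and 5, where Trac was at 59.9% and 81.1%. Its part in the difference was not tested. Cells with none of the 8 genes were 0.00259% ± 0.00387 and 0.0601% ± 0.0965 of naive-like cells (exact p = 0.0108), both close to 0.

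In all lymphocytes, which mix the states in proportions that differ between tumors, Trac was at 32.6% to 52.0% (median 44.9%) in IgG2a and 32.9% to 80.7% (median 51.6%) in B20 tumors (exact p = 0.126). Trdc was at 15.3% to 41.3% (median 29.7%) and 3.74% to 30.7% (median 21.5%), with an exact p of 0.101. Co-detection had means of 45.8% ± 12.1 (n = 6) and 32.4% ± 22.1 (n = 9), again without passing (exact p = 0.20). The groups overlapped for each of the 8 members.

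The change between states was also compared between treatments, over 6 IgG2a and 4 B20 tumors. The cytotoxic minus naive-like difference was -26.8 ± 14.5 percentage points in IgG2a and -31.7 ± 10.7 in B20 tumors for Trac, and 25.6 ± 18.4 and 33.7 ± 8.16 for Trdc (SD, exact p = 0.581 and 0.433). None of the 8 members passed, and the smallest exact p among them was 0.295, for Trgv2. Any αβ gene fell by 5.10 percentage points in IgG2a and by 3.08 in B20 tumors (exact p = 0.0238). Leaving out B20 pool 2, IgG2a pool 1 or IgG2a pool 2 gave an exact p of 0.179, 0.0571 and 0.114. It was 0.143 without the lymphocyte-rich tumors and 0.0619 with counts not thinned.

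Summed counts were compared between treatments in the same populations. With edgeR in cytotoxic cells 0 of 8 members passed, 0 had an unadjusted p under 0.05, DESeq2 called 0, and 0.0194% of 5157 genes passed. The largest fold was that of Trac, 0.27 ± 0.15 (SE, edgeR adjusted p = 0.82). In all lymphocytes 0 of 8 passed with edgeR or DESeq2, 2 (Trac and Trbc2) had an unadjusted p under 0.05 with edgeR, and of 6795 genes 0.0589% passed and 14.8% had an unadjusted p under 0.05. Trac was 0.79 ± 0.29 higher in B20 tumors there (SE, edgeR adjusted p = 0.27). It passed without B20 pool 3 (1.08, edgeR adjusted p = 0.027), where 4.46% of all genes passed. In naive-like cells 6 members had enough counts to be tested, all but Trdc and Trgv2, and 3.72% of 967 genes passed (1.76% higher and 1.96% lower). With edgeR 0 of the 6 passed and all 6 had log2 folds above 0 in B20 tumors, 0.37 to 0.63. All 6 had an unadjusted p under 0.05, as did 23.0% of all genes. Other fits called members as well as more genes in all. DESeq2 called 2 of 6, Cd3d and Cd3g, and 6.62% of genes, and limma voom with pool as a random block called 4 of 6, Trbc1 and the 3 CD3 genes, and 11.5% of genes. With sums per pool (2 against 2) edgeR called 6 of 8 members, all but Cd3e and Cd3g, and 3.88% of genes, with Trdc (-2.58) and Trgv2 (-2.17) lower and the other 4 higher in B20 tumors. With no filter on low counts it called 8 of 8 and 2.89% of genes, again with Trdc (-2.26) and Trgv2 (-1.84) lower. Without IgG2a pool 2, Trbc1 passed (1.17, edgeR adjusted p = 0.037), as did 0.691% of all genes. Without B20 tumors 3, 4 and 6, 0 of 7 members and 0 of 1152 genes passed (edgeR). There 1 member and 4.34% of all genes had an unadjusted p under 0.05. Of the related lists, in the main fit with all tumors, Cd8b1 was higher (1.01 ± 0.27, edgeR adjusted p = 0.048) and Il2rb, a cytokine receptor chain of NK and memory T cells, lower (-1.63 ± 0.42, adjusted p = 0.046) in naive-like cells of B20 tumors. Without B20 pool 2, 0 of 1140 genes passed, and without IgG2a pool 1, 0 of 3111. The part of naive-like cells outside the cluster led by Lef1 in these 2 differences was not tested.

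Finally, the genes whose level ran most like that of a member were sought over 14 sums of tumor and state with at least 20 cells, 10 cytotoxic and 4 naive-like, among 2886 genes. The 4 naive-like sums came from B20 tumors 3, 4, 5 and 6, of which only tumor 5 also gave a cytotoxic sum. State and tumor are therefore mixed over these points, and correlations are given as a description. For Trac the closest were Rpsa (Pearson r = 0.97), Gmfg, Rplp1, Wdr89 and Rpl11, of which Rpsa, Rplp1 and Rpl11 encode ribosomal proteins. For Trdc they were 1810041H14Rik (r = 0.969), Cd3g (r = 0.964), Cd7, Ier5l and Gclm. For Cd3e the closest was Tmem59 at r = 0.82, followed by Rnaset2a, Maz, B4galt1 and Fth1, and no other receptor or CD3 gene was among them.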

How the data were processed

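Single-cell 3′ RNA was measured in 15 tumors, 6 IgG2a and 9 B20-4.1.1. Per the methods, the authors demultiplexed with bcl2fastq, aligned to mm10 and counted with Cell Ranger (6.1.2 per the file headers), and used Seurat 4.3.0. The deposited values are raw UMI counts per gene and cell, 1 matrix per tumor, with no normalization. The authors' filter on 50 housekeeping genes was not used here.

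From the counts, cells with at least 2500 UMIs, up to the authors' maximum, and at most 20% mitochondrial UMIs were kept, scaled to 10000 per cell, and clustered (scanpy 1.11.5, leidenalg 0.10.2, 2500 variable genes, 16 components, 20 neighbors, resolution 0.8). Receptor and CD3 genes were kept out of clustering and naming. Naming thresholds were set after the clusters were seen. No doublet caller was run beyond the UMI maximum. Shares after thinning are exact hypergeometric expectations.

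Members and lists were chosen with earlier results of these data known. Named genes were the 8 members, up to 5 genes past 0.05 per list and comparison, the largest change first, and for likeness the 5 nearest genes with a mean of at least 50 CPM on log2(CPM + 1); others were chosen after their values were seen. Shares were compared by exact two-sided tests over tumors, with unadjusted p. Summed counts were tested with edgeR 4.0.16 (quasi-likelihood, TMM, filterByExpr, Benjamini-Hochberg over all genes at 0.05), with DESeq2 1.42.0 and limma 3.58.1 as alternatives (R 4.3.3). Scripts were tested on simulated data. Genes that set a gate or class were not tested. A population needed 20 cells per tumor, but 10 for naive-like cells, the state comparison and the classes by Trac and Trdc. The minimum of 10 and those classes were chosen after the counts were seen, because the planned γδ-only class held 9 cells. The sources used here call the tumors distinct but do not say that each came from its own mouse, so p-values measure the spread between these tumors. Depth limits shares through counting error, since a gene at low level is missed in part of its cells.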

Additional observations from a re-analysis of the deposited data

Results flagged for a closer look

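Shares of cells with a UMI at 2500 UMIs per cell were tested for a tumor standing apart from its group in 66 groups of tumors, and 10 did, where chance gives about 1 in 20. B20 tumor 1 accounts for 6 of them, all low values in its 12 naive-like cells, with Trac at 59.9%, Trbc2 at 79.9%, Cd3d at 74.0%, Cd3e at 75.5%, Cd3g at 72.6% and the complete αβ pair at 58.8%. IgG2a tumor 5 was low for Trbc2 in naive-like cells (67.2%, 10 cells). IgG2a tumor 3 was low for Cd3g (74.8%) and high for Trac (42.3%) in cytotoxic cells. B20 tumor 9 was low for Cd3g among all lymphocytes (73.4%).

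The loss of any αβ gene from naive-like to cytotoxic cells differed between treatments by 2.02 percentage points, smaller in B20 tumors (exact permutation p = 0.0238, 6 against 4 tumors). The unnamed cluster of 313 cells with lymphocyte and epithelial markers, outside the comparisons, had αβ and γδ genes together in 18.7% of cells and a CD3 gene in 82.3%, against 0.0179% and 2.10% of epithelial-like cells.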

How the results depend on the processing

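No paired analysis was possible because replicate numbers name the pools in accession order and each pool holds 1 treatment. States and chain classes were compared within tumors throughout. With pools as the unit the smallest possible exact p is 0.1 to 0.333 for treatment and 0.125 for states, where the co-detection difference was 47.3 percentage points. Over the other alternatives with more than 1 tumor it was 27.6 to 58.2 and passed in each (leaving out a pool, 45.1 to 48.8). At least 20 naive-like cells were held by no IgG2a tumor, so treatment could not be compared at that minimum. Only B20 tumor 5 held 20 cells of both states (52 and 68). Its co-detection difference was 56.3 percentage points, which 1 tumor cannot test. Settings without the lymphocyte-rich tumors, with the mixed cluster and from 10 cells were chosen after seeing the data. Thin naive-like populations in IgG2a tumors (10 to 18 cells) limit every treatment comparison there.

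Leaving out each pool in turn, members whose shares passed between states numbered 4 to 7 (7 with all pools), and members that passed between treatments 0 to 2 in all lymphocytes, 0 to 1 in naive-like and 0 in cytotoxic cells. Taking lymphocytes cell by cell, 1 member passed for the state difference by treatment and 1 between treatments in naive-like cells, and 3 there with the mixed cluster. All these counts are at an unadjusted p. Shares were tested for the members and not for other genes, so no share over all genes stands beside the counts. In summed counts, another measure, 36.1% of 3869 genes had an unadjusted p under 0.05 between states (edgeR). Signs of share differences changed for Cd3e with a minimum of 1000 UMIs and thinning to 1000 (0.57). They also changed for Cd3g without thinning (-2.41) and with a gate of 2 UMIs (-3.09), and for all 3 CD3 genes together (-0.67 and -0.30, against 6.85).

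Genes called between treatments in all lymphocytes were 4, and 18 with DESeq2, 0 with no filter, 0 with limma voom and pool as a random block, 0 with sums per pool, 2 without the lymphocyte-rich tumors and 0 to 331 leaving out a pool. In naive-like cells they were 36, and 12 with RLE factors, 64 with DESeq2, 441 with no filter, 111 with voom, 306 with sums per pool, 0 without the lymphocyte-rich tumors and 0 to 36 leaving out a pool. Members passed there with no filter (8 of 8, against 2.89% of all genes), sums per pool (6 of 8, 3.88%), voom (4 of 6, 11.5%) and DESeq2 (2 of 6, 6.62%), and with 0 of 6 under RLE factors (1.24%). The fits of 8 members include Trdc and Trgv2, too sparse for the main fit, whose calls are a description only. In cytotoxic cells the genes called were 1, and 5 with DESeq2, 115 with no filter, 0 with voom, 0 with sums per pool, 4 from 10 cells and 0 to 65 leaving out a pool. Between states they were 988, and 1502 with sums per pool and state, 473 in IgG2a tumors alone, 560 in B20 tumors alone and 684 to 988 leaving out a pool. Between the Trdc and Trac classes they were 25, and 9 to 27 leaving out a pool. The causes were not tested.

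Several small log2 folds changed sign. Between states, Trbc1 was -0.17 in B20 tumors alone (-0.012 to 0.38 leaving out a pool), and Cd3d -0.071 with sums per pool, -0.17 in B20 tumors alone and -0.13 to 0.11 leaving out a pool. Between classes, Cd3g was 0.0030 from 2 UMIs, and leaving out a pool Trgv2 was -0.0069 to 0.20, Cd3e -0.094 to 0.065 and Cd3g -0.066 to 0.024. Between treatments in cytotoxic cells, Trbc2 was 0.18 from 10 cells, and leaving out a pool Trbc1 was -0.028 to 0.12, Trbc2 -0.17 to 0.031, Trdc -0.070 to 0.81, Trgv2 -0.16 to 0.46, Cd3d -0.15 to 0.53 and Cd3g -0.20 to 0.60. In all lymphocytes without the lymphocyte-rich tumors, Trdc was 0.011, Trgv2 0.11 and Cd3g 0.094, and leaving out a pool Trdc was -0.82 to 0.12, Trgv2 -0.80 to 0.15, Cd3d -0.016 to 0.54, Cd3e -0.0052 to 0.31 and Cd3g -0.49 to 0.43.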

Other observations

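The 102 cells that passed both gates had Trac in 69.5%, Trdc in 13.9% and αβ with γδ genes in 20% of cells at 2500 UMIs per cell, and the 479 cells that passed neither had 52.2%, 21.8% and 38.0%. A CD3 gene was in 92.0% and 89.2% of them. Among other classes, 219 neutrophil-like cells had a CD3 gene in 13.8% and 57 dendritic-like cells in 3.81%.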
